A study of Drosophila melanogaster with 48 samples.

Results

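The transcripts described here are those of yellow-g (FBgn0041709) and yellow-g2 (FBgn0035328), which are neighbouring members of the yellow gene family, and of 6 further genes, CG4009 (FBgn0038469), CG15570 (FBgn0029697), CG13114 (FBgn0032127), Muc4B (FBgn0052774), CG43333 (FBgn0263038) and CG1077 (FBgn0037405). They are 8 of the 14205 genes measured in abdominal fat body of Drosophila melanogaster females, and they were picked because their levels on the control diet peaked together near zeitgeber time (ZT) 4, that is 4 h after lights-on. The control-diet time course is therefore described without a test. All flies were mated females of the w1118 strain (iso31), about 3 days old when they were placed on the control diet (15SY) or the restricted diet (5SY) for 5 days and about 8 days old when dissected, and all were kept at 25 °C under 12 h of light and 12 h of darkness. The dissected abdomens were fat tissue attached to epidermis, with oenocytes, with the gut, the ovaries and other organs removed at dissection, and each library pooled about 10 flies. Libraries were made every 2 h at 12 times of day from ZT2 to ZT24, in 2 replicates for each diet and time, which gives 24 libraries per diet and 48 in all. Nothing in the labels says whether the replicates came from separate cultures, so p-values measure the spread between these libraries.

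Most of what is known of the yellow-g genes concerns the eggshell. In the ovary, the somatic follicle cells around each oocyte first secrete the vitelline membrane, built from products of the Vm genes, psd and Vml, and then the chorion, whose Cp36 and Cp38 proteins are made before those of Cp15 and Cp18. Follicle cells amplify several short stretches of their genome while they do this, among them the chorion gene clusters on the X chromosome and on the left arm of chromosome 3, the region of yellow-g and yellow-g2, and the region of CG13114 and its neighbour CG13113. CG4009 is predicted to encode a peroxidase and Muc4B a mucin; no role is given here for CG15570, CG43333 and CG1077. In the fly annotation of the RefSeq release used for names, yellow-g and yellow-g2 lie on 3L with only a transfer RNA gene between them, CG4009 and CG1077 on 3R, CG13114 and CG43333 on 2L, and CG15570 and Muc4B on the X chromosome. Bulk RNA cannot tell fewer cells of a type from less RNA per cell.

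Total estimated counts ranged from 5815474 to 33485927 per library (median 11728544), so that 3 counts, used here as the floor, corresponded to 0.0759 to 0.480 CPM, the read count scaled by the TMM-adjusted library size. The summed CPM of 10 fat body genes was 46748 to 280959 and that of 6 oenocyte genes 38380 to 113201, so transcripts of the labelled tissue were present in every library. Most of the fat body sum came from 3 yolk protein genes, with control means of 35670 to 54124.5 CPM. Transcripts that mark organs removed at dissection were detected as well: 18 germline genes summed to 164 to 3422 CPM, and 19 gut genes to 2.54 to 10199.5 CPM. The library from the restricted diet at ZT2, replicate 1, stood apart with 53.8% of its counts on ribosomal RNA rows. None of the 8 genes is highest in that library.

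The highest values of the morning peak on the control diet were in single libraries. In the 24 control libraries yellow-g ranged from 0.416 to 42.2 CPM with a median of 1.15, and its highest value was at ZT4 in replicate 1. The other control library of ZT4 held 0.823 CPM, below the median of the diet. Each of the other 7 genes also had its highest control value in the ZT4 library of replicate 1, while the second ZT4 library held 0.274 CPM of yellow-g2, 0.366 of CG4009, 0.183 of CG15570, 0.457 of CG13114, 0.183 of CG43333 and none of Muc4B or CG1077. Within replicate 2 the highest control value was at ZT8 for yellow-g (22.4 CPM), yellow-g2 (4.96), CG4009 (37.3), CG15570 (149) and CG13114 (16.0), and at ZT2 for Muc4B (1.92), CG43333 (2.00) and CG1077 (2.84). Both series thus had their highest values between ZT2 and ZT8, at different times and in single pools. Lower values lay around these for the yellow-g pair. In both series the control libraries of ZT2, ZT6 and ZT8 held 3.24 to 22.4 CPM of yellow-g and 1.37 to 10.1 of yellow-g2. The control libraries from ZT10 to ZT24 held at most 2.00 CPM of yellow-g and 1.18 of yellow-g2. A 24 h cosine fitted to the control libraries peaked between ZT 3.65 (CG13114) and ZT 5.42 (CG43333), with log2 amplitudes from 2.13 (yellow-g) to 4.73 (CG1077). Without the ZT4 library of replicate 1 the amplitudes were smaller, from 1.62 for yellow-g to 3.28 for CG15570, and CG1077 fell to 3.05. These values are what the choice of the genes used, and they are given as a description.

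**Figure D1:**
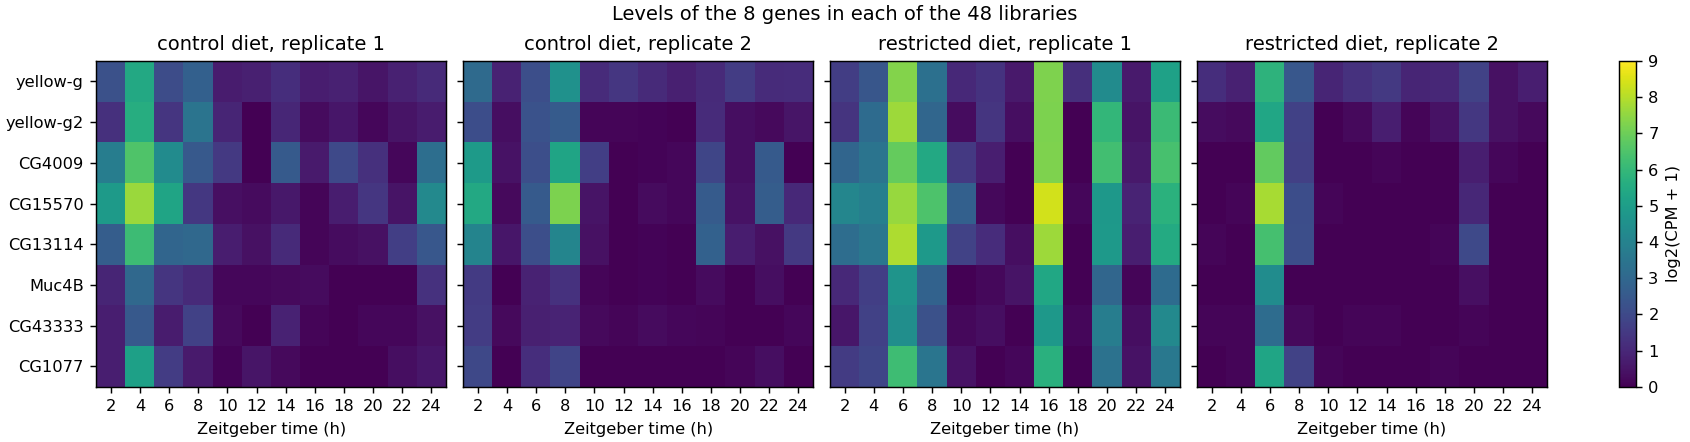
Level of each of the 8 genes, as log2(CPM + 1) in colour, by zeitgeber time in hours (x axis), with a panel for each diet and replicate. Bright columns are single libraries: control ZT4 in replicate 1 but not in replicate 2, and on the restricted diet ZT6 in both replicates and ZT16, ZT20 and ZT24 in replicate 1 alone.

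On the restricted diet the genes were high in libraries spread over the day and the night. In its 24 libraries yellow-g ranged from 0.309 to 161 CPM with a median of 1.46. Its values were above 10 CPM in 5 libraries: 161 and 55.4 in the replicates of ZT6, and 153 at ZT16, 19.1 at ZT20 and 34.6 at ZT24, all 3 in replicate 1. The replicate 2 libraries of those 3 night times held 0.891, 2.46 and 0.703 CPM. For yellow-g2 the range was 0 to 206 CPM and the median 0.548, and the same 5 libraries led, with 206 and 39.0 at ZT6, 148 at ZT16, 61.1 at ZT20 and 69.5 at ZT24. The replicate 2 libraries of ZT16, ZT20 and ZT24 held 0.081, 1.77 and 0.176 CPM of yellow-g2. Within replicate 2 each of the 8 genes had its highest restricted value at ZT6. Within replicate 1 it was at ZT6 for yellow-g, yellow-g2, CG13114 and CG1077, and at ZT16 for CG4009, CG15570, Muc4B and CG43333. A name such as morning transcripts therefore leaves out the high night libraries of replicate 1 on this diet.

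CG4009 ranged from 0 to 90.7 CPM in control libraries (median 2.42) and from 0 to 153 in restricted ones (median 0.595). CG15570 ranged from 0 to 200.4 CPM (median 0.846) and from 0 to 337 (median 0.501). CG13114 ranged from 0 to 71.0 CPM (median 0.888) and from 0 to 238 (median 0.950). For all 3 the control range lay within the restricted range, and the medians were under 1 CPM apart from that of CG4009 in control libraries. Muc4B ranged from 0 to 7.16 CPM in control libraries (median 0.140) and from 0 to 40.5 in restricted ones (median 0.0434). CG43333 ranged from 0 to 4.72 CPM (median 0.171) and from 0 to 27.1 (median 0.126). CG1077 ranged from 0 to 33.5 CPM (median 0.125) and from 0 to 72.0 (median 0.109). These last 3 were at or under 3 counts in 32, 30 and 28 of the 48 libraries. At the other end stood yellow-g, which had counts in all 48 libraries and was at the floor, with 3 counts, in 1, whereas yellow-g2 was at 0 counts in 4 and at or under 3 counts in 21.

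High values were rarely shared by both replicates of a diet and time. Over the 24 pairs, yellow-g reached 10 CPM in both libraries of 1 pair (restricted ZT6), in 1 library of 5 pairs and in neither library of 18 pairs, and the counts for yellow-g2 were the same. CG15570 reached it in both libraries of 2 pairs and in 1 library of 10. The largest gap within a pair, on the log2(CPM + 1) scale, was 8.40 for CG15570 on the restricted diet, 7.11 for yellow-g2 on the restricted diet and 4.57 for yellow-g on the control diet. The standard deviation (SD) within pairs of yellow-g2 on the restricted diet was 2.27, against an SD of 1.94 for the 12 means over time. For the clock gene tim on the same diet these values were 0.148 and 1.21. The SD within pairs is that of single libraries, whereas each of the 12 means averages 2 libraries. With replicate noise alone the SD of the means would be the smaller, so the 2 SDs are not directly comparable.

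The same few libraries carried all 8 genes. When the 7 libraries with the highest CPM were listed for each gene, control ZT4 of replicate 1, restricted ZT6 of replicates 1 and 2, restricted ZT16 of replicate 1 and restricted ZT24 of replicate 1 were on all 8 lists. Restricted ZT20 of replicate 1 was on 7 lists and restricted ZT8 of replicate 1 on 6. Of the remaining entries, control ZT8 of replicate 2 had 2 and control ZT8 of replicate 1 had 1. The top 3 libraries held 68.3% of the summed control CPM of yellow-g and 80.4% of its summed restricted CPM. Across the 24 restricted libraries, which the choice of the genes did not use, Pearson's r of log2(CPM + 1) between any 2 of the 8 genes was 0.91 to 0.98 with a median of 0.96. Across the control libraries it was 0.68 to 0.94 with a median of 0.87. These correlations describe libraries of unequal depth in which most values are near the floor, and in which the libraries named above are high for every gene.

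Among themselves the genes did not keep fixed proportions. TPM values, which are scaled by transcript length, allow levels of different genes to be compared. In the 8 libraries with the highest summed TPM of the genes, CG13114 made up a median of 21.4% of the sum, CG4009 20.4%, yellow-g2 17.5%, yellow-g 16.4% and CG15570 16.2%, and CG1077 (4.62%), Muc4B (2.81%) and CG43333 (0.896%) made up less. The share of yellow-g2 ran from 4.29% in control ZT8 of replicate 2 to 34.5% in restricted ZT20 of replicate 1. The share of CG15570 was highest and lowest in the same libraries in the opposite order, at 38.9% and 4.58%. In restricted ZT24 of replicate 1 yellow-g2 was again high (29.8%) and CG15570 low (6.91%). The share of yellow-g varied less, from 8.96% to 21.8%. These shares come from single libraries and have no replicate error.

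Where the 8 genes were high, transcripts of early chorion genes were high too, and those of late chorion and vitelline membrane genes were high in some libraries and low in others. For description, the chorion genes were listed as an early group (Cp36, Cp38, Cp7Fa, Cp7Fb, Cp7Fc and dec) and a late group (Cp15, Cp16, Cp18 and Cp19), beside 7 vitelline membrane genes (Vm26Aa, Vm26Ab, Vm26Ac, Vm32E, Vm34Ca, Vml and psd). Genes of the early group lie on the X chromosome and those of the late group on 3L. Early and late are names of these lists, not a stage shown for each gene. In restricted ZT16 of replicate 1 the 8 genes summed to 1115 CPM, the early chorion genes to 2631, the late ones to 65.98 and the vitelline membrane genes to 1067. In restricted ZT6 of replicate 1 the 8 genes summed to nearly as much, 1032 CPM, with 1856 for the early chorion genes, but the late chorion genes stood at 1039 and the vitelline membrane genes at 23.5. In restricted ZT6 of replicate 2 the 8 genes summed to 581 CPM and the early chorion genes to 1793, while the late ones stood at 5.90 and the vitelline membrane genes at 120. These 3 libraries were alike in their early chorion sums and unlike in the others.

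The same held for the others. Restricted ZT24 of replicate 1 held 321 CPM of the 8 genes, 1054 of the early chorion, 14.8 of the late chorion and 53.4 of the vitelline membrane genes, and restricted ZT20 of replicate 1 held 240, 1011, 17.2 and 37.3 CPM. Control ZT4 of replicate 1 held 498 CPM of the 8 genes and was high for every group, with 3223, 1639 and 1331 CPM, and with the highest germline sum of any library, 3422 CPM, beside the lowest fat body sum, 46748 CPM. Control ZT24 of replicate 1 showed the reverse case for the late chorion: it had the highest late chorion sum of any library, 2491 CPM, with 34.7 CPM of the 8 genes. Restricted ZT16 of replicate 2 held 794 CPM of the late chorion genes, 3.9 CPM of the early ones and 1.0 CPM of the 8 genes. The early chorion sum was also high in libraries where the 8 genes were low, such as control ZT14 of replicate 1 (834 CPM against 9.76) and control ZT22 of replicate 1 (830 against 4.27), and in those dec made up 758 and 821 CPM of the sum. The part that carried-over ovarian tissue had in these values was not tested.

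**Figure D2:**
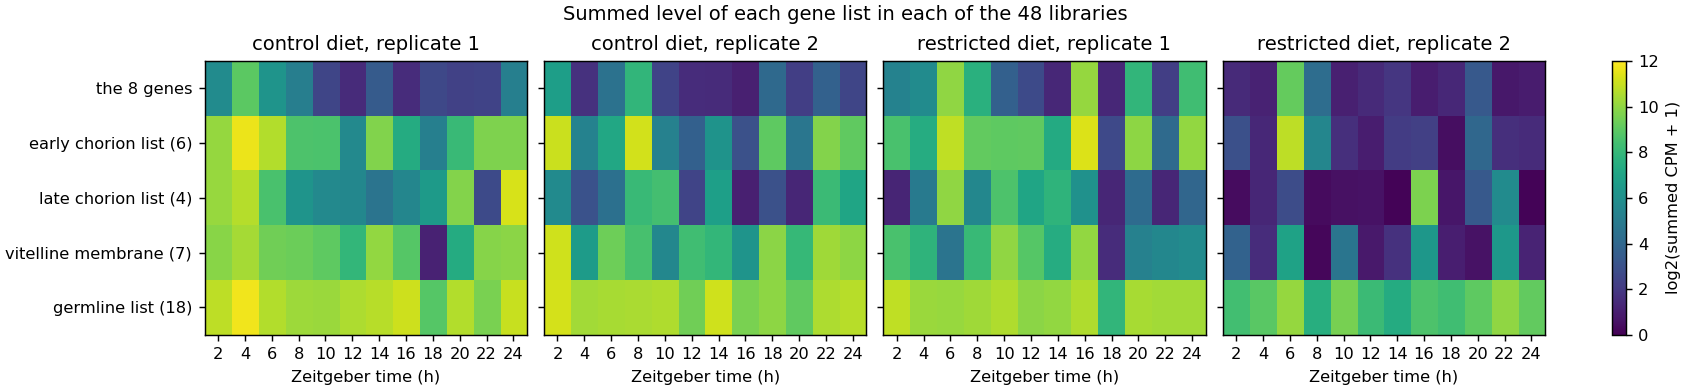
Summed CPM, as log2(sum + 1) in colour, of the 8 genes and of the early chorion, late chorion, vitelline membrane and germline lists (number of genes in brackets), by zeitgeber time in hours (x axis), with a panel for each diet and replicate. Libraries with high sums of the 8 genes have high early chorion sums, and the late chorion row is bright in other libraries, such as restricted ZT16 of replicate 2.

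Gene by gene, the correlations across the 24 restricted libraries with Cp36 and Cp38 were 0.91 to 0.98 over the 8 genes. Over all pairs with the early chorion group the median r was 0.92, with the late chorion group 0.34 and with the vitelline membrane group 0.32, against 0.96 among the 8 genes. The groups were not uniform. In the early group dec, the defective chorion gene, had r of 0.42 to 0.59, and in the late group Cp19 had 0.73 to 0.77 whereas Cp15 had -0.02 to 0.06. Within the 8 genes, yellow-g2 and CG43333 reached r of 0.94 with Cp7Fc, and CG15570 reached 0.83 with Cp7Fc and 0.98 with Cp38. In the control libraries the medians were 0.72 for the early chorion, 0.36 for the late chorion and 0.44 for the vitelline membrane group.

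**Figure D3:**
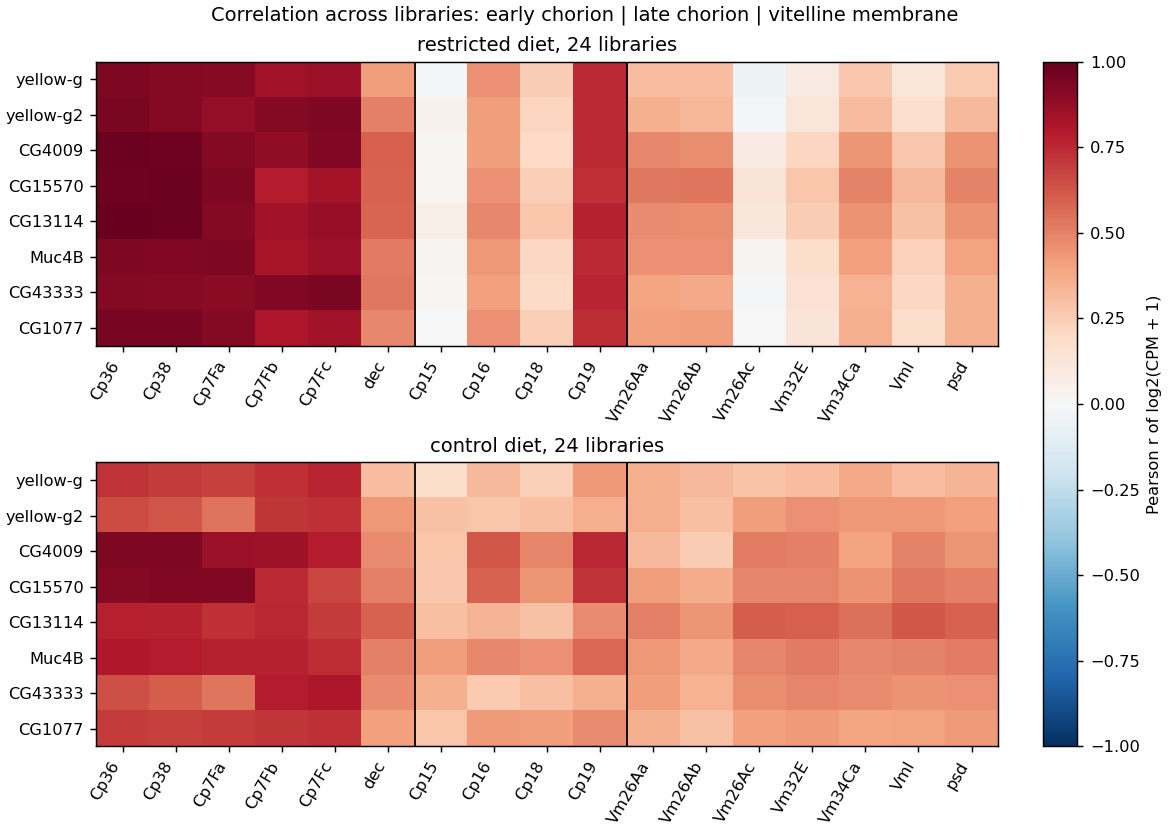
Pearson's r of log2(CPM + 1), in colour from -1 to 1, between each of the 8 genes (y axis) and each eggshell gene (x axis), across the 24 restricted-diet libraries (top) and the 24 control-diet libraries (bottom); black lines part the early chorion, late chorion and vitelline membrane groups. On the restricted diet 5 of the 6 early chorion columns and the Cp19 column are dark, and the other columns are pale.

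For yellow-g and yellow-g2 the relation was tested over the 24 restricted libraries against the mean log2(CPM + 1) of the 10 chorion genes and of the 7 vitelline membrane genes, as 4 relations in all. With the chorion genes, yellow-g had Pearson's r of 0.81 (permutation p = 1e-05, the smallest that 100000 resamples allow; adjusted p = 2e-05) and Spearman's rho of 0.66 (permutation p = 0.00054, adjusted p = 0.00108). For yellow-g2 the values were 0.84 (permutation p = 1e-05, adjusted p = 2e-05) and 0.73 (permutation p = 5e-05, adjusted p = 0.0002). With the vitelline membrane genes neither relation passed: r was 0.23 for yellow-g (permutation p = 0.288, adjusted p = 0.288; rho 0.17, p = 0.414, adjusted p = 0.414) and 0.27 for yellow-g2 (permutation p = 0.197, adjusted p = 0.263; rho 0.33, p = 0.109, adjusted p = 0.145). The difference between the chorion and vitelline membrane relations was not itself tested. The 24 libraries were permuted freely and not within replicate series, although levels differed between the series. The restricted mean log2(CPM + 1) of yellow-g2 was 3.08 in series 1 and 0.94 in series 2, and that of the early chorion genes 4.29 and 1.08. These p-values therefore include the shift between the series.

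Leaving out the 2 libraries farthest from the median of the eggshell level left r at 0.69 for yellow-g and 0.75 for yellow-g2 with the chorion genes, and at 0.13 and 0.23 with the vitelline membrane genes. In replicate series 1 alone the chorion r was 0.82 for both genes (adjusted permutation p = 0.00262 for both). The vitelline membrane r was -0.13 for yellow-g and -0.15 for yellow-g2. In series 2 alone the chorion r was 0.80 for yellow-g and 0.82 for yellow-g2 (adjusted permutation p = 0.0384 for both). Spearman's rho was only 0.38 and 0.42 (adjusted permutation p = 0.459 for both). There the relation rested on restricted ZT6 of replicate 2, without which r was 0.21 and 0.27. With the early chorion genes alone, a split made after the data were seen, r was 0.89 for yellow-g and 0.93 for yellow-g2, and in series 2 without ZT6 it was 0.86 and 0.90, with rho of 0.52 and 0.37. With the late chorion genes alone it was 0.37 for both (adjusted permutation p = 0.141).

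**Figure D4:**
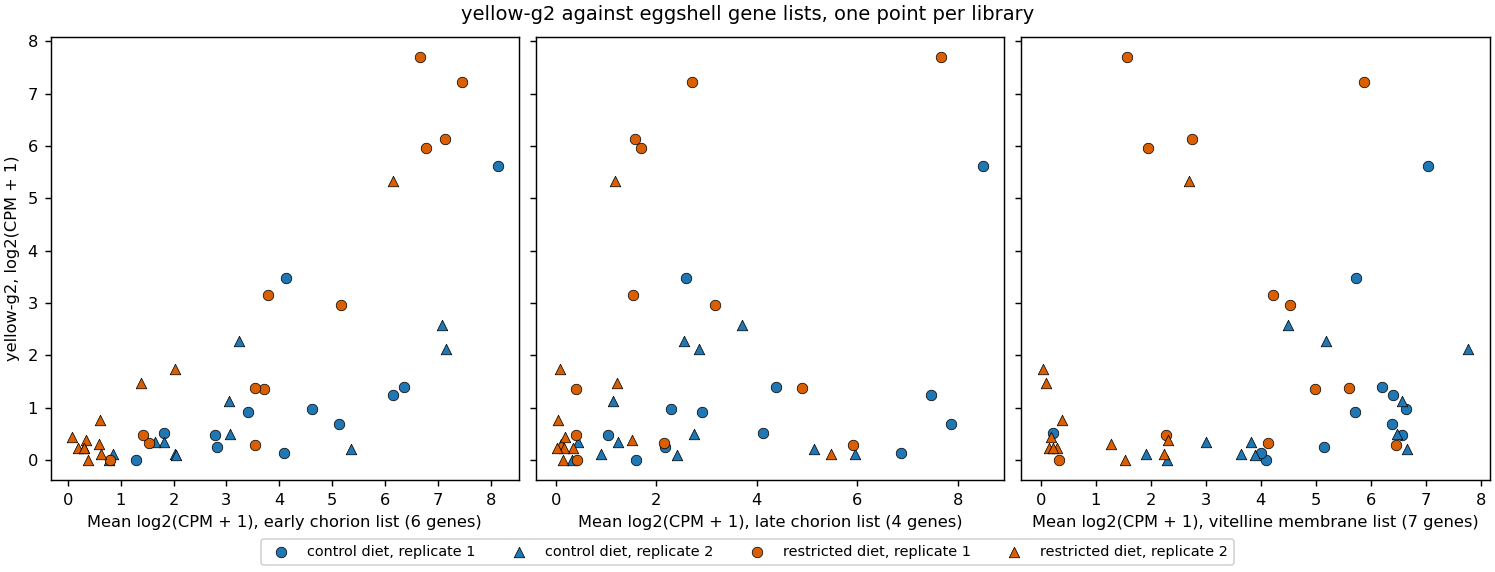
Level of yellow-g2, as log2(CPM + 1), against the mean log2(CPM + 1) of the early chorion (left), late chorion (middle) and vitelline membrane (right) genes, one point per library, with colour for the diet and shape for the replicate. The 5 restricted libraries with the highest yellow-g2 lie at the right of the early chorion panel and are spread along the axis in the other panels.

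The genes outside the picked group whose levels were most like the mean of yellow-g and yellow-g2 over the 24 restricted libraries were CG11381 (r = 0.97), Obp19c (0.94), CG10163 (0.93), Cp36 (0.92), Cp7Fc (0.92), Cp38 (0.90), Cp7Fb (0.90) and CG13737 (0.89), of 10070 genes tested. Obp19c encodes a member of the odorant-binding protein family, and 4 of these 8 are chorion genes. CG11381 had its highest level, 100.3 CPM, in restricted ZT6 of replicate 1, as yellow-g and yellow-g2 did, and Obp19c had its highest, 36.8 CPM, in restricted ZT20 of replicate 1. In the control libraries r with the same mean was 0.73 for CG11381 and 0.68 for Obp19c. Likeness here is a description over 24 libraries of 2 replicate series.

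Genes next to the yellow-g pair on the chromosome had other patterns. MsR2, a myosuppressin receptor gene beside yellow-g2, had r of -0.48 with the mean of the pair, and CG32302, beside yellow-g, reached at most 7.60 CPM and did not pass the filter on low counts. Near CG13114 the pattern of the yellow-g pair was shared by CG13113. Its r with the mean of the pair was 0.81 over the restricted and 0.66 over the control libraries. It had its highest level, 17.9 CPM, in control ZT4 of replicate 1. On the other side of CG13114, jp ranged up to 74.6 CPM. Its r with the same mean was 0.37 over the restricted and -0.45 over the control libraries.

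The diet comparison asked whether the 8 genes were higher or lower on the restricted diet over the day. Its control side is made of the libraries in which the genes were picked, so this comparison, the eggshell-relative one and the fit with eggshell covariates are not independent of the choice. On the log2(CPM + 1) scale the mean of yellow-g was 1.63 ± 1.24 for control and 2.30 ± 2.11 for restricted libraries (SD, n = 24 each), and that of yellow-g2 was 1.07 ± 1.33 and 2.01 ± 2.51. The spread exceeded the differences and the groups overlapped. In edgeR's quasi-likelihood test with time as a factor, the log2 change (restricted minus control) was 0.90 ± 0.72 (SE) for yellow-g (adjusted p = 0.355) and 1.82 ± 1.09 for yellow-g2 (adjusted p = 0.210). It was 0.16 ± 1.15 for CG4009, 0.39 ± 1.08 for CG15570, 1.09 ± 1.00 for CG13114, 1.53 ± 0.94 for Muc4B, 1.73 ± 0.93 for CG43333 and 2.33 ± 1.04 for CG1077 (adjusted p = 0.0899). None of the 8 genes passed the adjusted threshold of 0.05, where 25.8% of the 10070 genes tested did, and DESeq2 and limma also called none of the 8. CG1077 was the only one of them with an unadjusted edgeR p under 0.05. The median change of the 8 genes was 1.31, beside 0.01 for all genes tested.

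Control ZT4 of replicate 1 held the highest control value of each of the 8 genes, so leaving it out lowers the control side by construction. The median change of the 8 genes was then 1.98. That of CG1077 was 3.13 (edgeR adjusted p = 0.0202), and it was the only one of the 8 to pass. Because the genes were picked on that library, this pass is no evidence of a diet effect. For 6 of the 8 genes the estimates differed in sign between the replicate series. In series 1 alone all 8 log2 changes were above 0, with a median of 2.28, and in series 2 alone the median was -1.29, with yellow-g at -0.31, CG15570 lowest at -3.55, and yellow-g2 (0.18) and CG1077 (0.04) above 0. No gene of the 8 passed in series 1, where 0.0199% of all genes tested did (2 of 10070), or in series 2, where 42.8% did. A test of the difference between the series, added after the data were seen, gave log2 differences from -2.61 (yellow-g, adjusted p = 0.161) to -5.13 (CG15570, adjusted p = 0.102), none past the threshold, where 9.46% of all genes passed. The series also differed in the share of counts on mitochondrial genes, which was 4.41% to 7.05% in the control libraries of series 1 and 2.09% to 2.55% in those of series 2, without overlap, and 1.24% to 7.72% and 2.32% to 2.85% in the restricted libraries. Its part in the diet estimates was not tested.

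Estimates for the eggshell genes were below 0 in the same fit. All 7 vitelline membrane genes fell on the restricted diet, by a median log2 change of -2.90, from -2.06 ± 0.66 for psd (adjusted p = 0.0233) to -3.42 ± 0.98 for Vm32E (adjusted p = 0.0149). None of the 6 early chorion genes passed, with all 6 estimates below 0 and a median of -1.18; Cp7Fc stood at -0.21 ± 1.20 and dec at -2.15 ± 1.07. Of the 4 late chorion genes 1 fell, Cp19, by 4.21 on the log2 scale (SE 1.27, adjusted p = 0.0186). For comparison, 15.4% of all genes tested fell and 10.4% rose. These estimates pool replicate series that differed. On the log2(CPM + 1) scale the mean of the early chorion genes changed by 0.06 in series 1 and by -2.09 in series 2. That of the vitelline membrane genes changed by -1.62 and -3.70, and that of the late chorion genes by -1.60 and -1.57. Of 11 other eggshell and follicle cell genes tested 4 fell, among them CG14309 (-4.36 ± 1.40, adjusted p = 0.0245), Femcoat (-3.67 ± 1.13, adjusted p = 0.0201), which encodes an eggshell protein, and the peroxidase gene Pxt (-1.14 ± 0.41, adjusted p = 0.0385), and 1 rose, tsl (0.29 ± 0.10, adjusted p = 0.0385). Of 18 germline genes 13 fell, with a median change of -1.01.

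**Figure D5:**
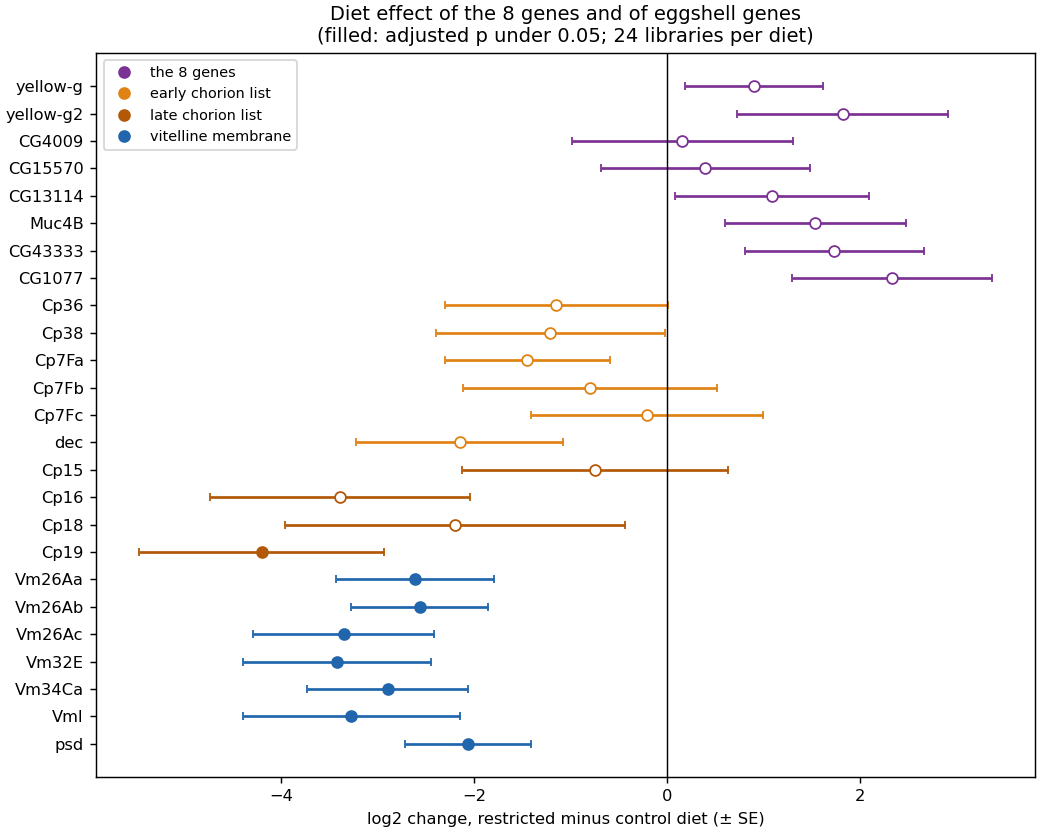
Log2 change on the restricted against the control diet (x axis, points, with bars for the SE; 24 libraries per diet) of the 8 genes, the early and late chorion genes and the vitelline membrane genes (y axis); filled points passed an adjusted p of 0.05. The 8 genes lie at or above 0 with wide bars, and all 7 vitelline membrane genes and Cp19 are filled and below 0.

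Of the 10 other yellow family genes tested, 3 rose on the restricted diet by small amounts, yellow-h (0.41 ± 0.12, adjusted p = 0.0193), yellow-f (0.39 ± 0.12, adjusted p = 0.0237) and yellow-c (0.37 ± 0.14, adjusted p = 0.0465), and 1 fell, yellow-k (-1.10 ± 0.36, adjusted p = 0.0259). Oenocyte markers rose in 5 of 6 cases with a median change of 0.35, and 1 of 8 fat body genes tested rose and 1 fell, with a median of -0.21. Among 18 gut genes tested 1 fell and none rose.

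The yellow-g genes were also set against the eggshell genes within each library, with the same limit on the control side. The level of yellow-g minus the mean of the 17 chorion and vitelline membrane genes, on the log2(CPM + 1) scale, was -2.53 ± 1.41 over control and -0.04 ± 1.72 over restricted libraries (SD, n = 24 each), a difference of 2.49 (2-sided permutation test, p = 2e-05, adjusted over the 2 genes p = 2e-05). For yellow-g2 it was -3.09 ± 1.39 and -0.32 ± 1.87, a difference of 2.77 (permutation p = 2e-05, adjusted p = 2e-05). Most of this difference was in the eggshell genes, whose mean was 4.16 ± 1.73 over control and 2.33 ± 1.88 over restricted libraries. In replicate series 2 the relative difference of yellow-g was 2.53 while yellow-g itself changed by -0.10 and the eggshell mean by -2.63; in series 1 it was 2.45, with 1.43 and -1.02. With the early chorion genes alone as the reference the difference was smaller, 1.68 for yellow-g (permutation p = 0.00014) and 1.96 for yellow-g2 (permutation p = 1e-05). Where both the gene and the reference are near the floor, as in most restricted libraries of series 2, the quantity is close to 0 whatever the true ratio.

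When the mean log2 CPM of the chorion and of the vitelline membrane lists entered the diet fit as covariates, 6 of the 8 genes passed as higher on the restricted diet, where 0.139% of all genes did: CG1077 (4.00), Muc4B (3.95), CG15570 (3.78), CG13114 (3.70), yellow-g2 (3.64) and CG4009 (2.88, adjusted p = 0.0345). In that fit CG43333 stood at 2.92 ± 0.73 (adjusted p = 0.1004) and yellow-g at 1.73 ± 0.55 (adjusted p = 0.185). This is a change at equal levels of the eggshell genes, which themselves differed between the diets. It is therefore not a measure of whether the 8 genes themselves changed with diet. Without these covariates none of the 8 passed, and the control side holds the values by which they were chosen.

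The time course on the restricted diet, which the choice of the genes did not use, was tested with a 24 h cosine. None of the 8 genes passed, where 1.15% of all genes did (116 of 10070), and the unadjusted p of each was above 0.05, the lowest in edgeR being 0.393 for CG1077; DESeq2 and limma also called none of the 8. Log2 amplitudes ran from 0.32 (yellow-g2) to 1.31 (CG15570), with adjusted p from 0.959 to 0.999. Fitted peaks of yellow-g, CG15570, CG13114, Muc4B and CG1077 lay from ZT 9.07 (CG1077) to ZT 10.5 (Muc4B). Those of CG4009, yellow-g2 and CG43333 were at ZT 3.21, ZT 3.60 and ZT 23.6. Among the 8 core clock genes 7 passed in the same test. Without restricted ZT16 of replicate 1 the amplitude of yellow-g was 2.54 and it passed (adjusted p = 0.0445). With time as a factor of 12 levels yellow-g alone of the 8 passed (adjusted p = 0.00819), where 0.447% of all genes did; restricted ZT6 was the 1 time at which both of its libraries were high. In series 2 alone CG1077 passed (adjusted p = 0.0153), with 38.1 CPM at ZT6, 2.41 at ZT8 and no more than 0.0898 CPM in its other libraries.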

How the data were processed

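RNA was sequenced from 48 libraries. Estimated counts and TPM per gene, both deposited by the authors, were used. Reads had been quantified with kallisto 0.44.0 and inspected with FastQC, per the submitters' processing notes; the build, annotation, strandedness and how transcripts were summed by gene were not given in the sources used here, and no coordinates are printed. Of the estimated counts, 88.2% were whole within 0.01; all were rounded. Genes passing edgeR's filterByExpr (minimum count 10 over diet and time groups; 10070 genes) were scaled by TMM and tested with edgeR 4.0.16's quasi-likelihood test in R 4.3.3, with Benjamini-Hochberg adjustment over all genes tested. All 8 genes passed the filter, which a gene can do through the few libraries in which it is high. CPM values are TMM-scaled. The scripts were tested on simulated data. Eggshell-relative levels and correlations among the 8 genes and with eggshell genes used log2(CPM + 1). Permutation tests used 100000 resamples. Likeness to the mean of the yellow-g pair, also for neighbouring genes, used standardized log2 CPM with a prior count of 2 and had no test. Alternatives used DESeq2 1.42.0, limma 3.58.1 on log2(TPM + 1) or log2(TPM + 0.1), other filters, covariates, single replicate series and each library left out in turn. The 8 genes, the gene lists and the tests were chosen with earlier results of these data known. Named are all 8 genes, all chorion and vitelline membrane genes, up to 3 genes with the smallest p in the diet fit from other lists, the 8 genes most like the yellow-g pair, and 5 neighbours on each side of yellow-g, yellow-g2 and CG13114, of which those that bear on a result are given. CG13113 belongs to the eggshell list as well; tim, as a clock gene for comparison, and yellow-c and tsl, which complete small counts, were chosen after their values were seen. Gene names and neighbours came from the RefSeq fly annotation. Counting error is the only error that the floor of 3 counts covers.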

Additional observations from a re-analysis of the deposited data

How the results depend on the processing

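The count of the 8 genes called for diet was 0 of 8 with DESeq2, with its size factors in edgeR, with no filter, with a filter of 10 CPM in 2 libraries, with limma on TPM, in series 1 alone (0.0199% of all genes called) and in series 2 alone (42.8% called), 6 with chorion and vitelline membrane covariates, 4 without a time term (yellow-g, yellow-g2, Muc4B and CG43333, where 10.6% of all genes were called higher), and 0 to 1 when each library was left out. The restricted-diet rhythm was called for 0 of the 8 in most alternatives, for 1 in series 2 alone (where 0.745% of all genes passed), for 1 with time as a factor, and for 0 to 1 with each library left out. Log2 diet changes that turned below 0 were, in series 2 alone, -0.31 for yellow-g, -3.20 for CG4009, -3.55 for CG15570, -2.26 for CG13114, -1.48 for Muc4B and -1.10 for CG43333; with DESeq2, -0.079 for CG4009 and -0.29 for CG15570; with limma on log2(TPM + 0.1), -0.33 for CG4009; and with each library left out in turn, a range of -0.58 to 0.88 for CG4009 (12 libraries gave values below 0) and of -0.22 to 1.15 for CG15570 (below 0 without restricted ZT16, ZT20 or ZT24 of replicate 1). The vitelline membrane r of series 1 was -0.13 for yellow-g and -0.15 for yellow-g2, and the late chorion r of 0.37 missed the threshold for both. The eggshell-relative difference kept its direction and its call in every alternative run, at 1.68 to 3.34 for yellow-g and 1.96 to 3.76 for yellow-g2. Every alternative kept control libraries used in the choice of the genes. Over both series the eggshell mean changed by -1.83 and yellow-g by 0.66 on the log2(CPM + 1) scale. The repeated call is therefore not a measure of a change in the yellow-g genes themselves. The causes of these changes were not tested. Most libraries hold few counts of these genes, which limits each estimate.

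Whether the replicate numbers pair the libraries is not given in the labels, and the main fits did not pair them. At each of the 12 times, the difference between the 2 replicates on the control diet was correlated with that on the restricted diet. The correlations were -0.16 to 0.46 (median 0.15). Of these correlations 8 were over 0.1, and no pairing was decided from them. With a replicate block 0 of the 8 genes were called for diet and 0 for rhythm. The count over all genes was then 3824 for diet, where it was 2601 without the block, and 171 for rhythm, where it was 116. With the block the change of CG4009 was -0.42 and that of CG15570 -0.26. The eggshell-relative differences of 2.49 and 2.77 kept permutation p = 1e-05.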
